A study of Mus musculus with 32 samples.

Results

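The chromatin contacts of 10 core pluripotency genes, Pou5f1, Sox2, Nanog, Klf4, Klf2, Esrrb, Zfp42, Tbx3, Sall4 and Fbxo15, were followed in RADICL-seq data from mouse cells. RADICL-seq ligates RNA to nearby DNA in fixed nuclei, so that an interaction joins 1 RNA tag to 1 DNA tag. The genes were chosen by name, and an interaction was taken as theirs when the gene of its RNA tag, matched by Ensembl identifier, was 1 of the 10. They gave 39916 of 25231081 listed interactions, as 10 of 17784 listed transcripts, in 15 libraries. DNA tags lying in the 10 genes were collected as well, by the RNA that contacted them.

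The libraries came from R08, a male mouse embryonic stem cell (mESC) line grown without feeders in serum with leukaemia inhibitory factor, and from mOPC, for which the study used Oli-neu, a neural line derived from mouse oligodendrocyte progenitor cells. The mESC line was fixed with formaldehyde at 1% (mESC 1FA, 3 libraries) or 2% (mESC 2FA, 3 libraries), or treated with actinomycin D, a transcription inhibitor, at 5 µg/ml for 4 h and then fixed with 1% (mESC ActD4, 2 libraries). In NPM libraries (mESC NPM, 2 libraries) proteins were digested and the crosslinks of 1% formaldehyde reversed before RNA ligation. The mOPC line gave 3 libraries of 1FA and 2 of NPM. Each cell type is 1 line, and replicates were batches of cells of different passage number. No genotype other than that of the lines is given.

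Pluripotency in the mouse rests on a network of transcription factors that bind their own and each other's regulatory regions. Pou5f1 (Oct4), Sox2 and Nanog form its centre. Klf4, Klf2, Esrrb and Tbx3 help to keep cells in the naive state under leukaemia inhibitory factor, Sall4 is a zinc-finger partner of Pou5f1 and Nanog, and Zfp42 (Rex1) and Fbxo15 are classic markers and targets of the network. Sox2 and Klf4 also have roles outside stem cells, and Sox2 is used in neural progenitors.

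The authors tested every transcript against 25-kb bins of DNA over the pooled replicates of a condition, and the files list only the pairs called significant. A gene listed at 0 therefore has no called pair, which is not the same as no RNA, and the totals below are not sequencing depth. Listed interactions ranged from 2441619 to 2832717 per library in mESC 1FA, from 2035499 to 2515347 in mESC 2FA, from 251802 to 418781 in ActD4, from 434610 to 608994 in mESC NPM, from 1998951 to 2210765 in mOPC 1FA and from 1190366 to 1272653 in mOPC NPM. Levels are given as CPM, the interactions of a gene per 1000000 listed in the library after scaling, and differences as log2 fold changes from limma with adjusted p-values over all transcripts tested, with 0.05 as the threshold.

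The promoters of the centre of the network and of its marker Zfp42 are shown. DNA tags were counted around them and around those of Klf4, Klf2 and Esrrb. Each is the 250 bases before an annotated start, in RefSeq on GRCm38.p6 (the mm10 build of the files), printed 5′ to 3′ on the gene's strand. Capitals mark exact matches, on either strand, to the octamer ATGCAAA, the SOX motif ACAATG, the ESRRB motif AAGGTCA and the KLF motif GGGNGTG.
Pou5f1, chr17:35505782-35506031, plus strand: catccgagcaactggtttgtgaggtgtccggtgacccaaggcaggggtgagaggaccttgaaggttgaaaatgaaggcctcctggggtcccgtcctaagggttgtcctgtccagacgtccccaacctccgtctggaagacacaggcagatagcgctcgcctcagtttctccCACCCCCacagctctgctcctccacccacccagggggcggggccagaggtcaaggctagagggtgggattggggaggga
Sox2, chr3:34649745-34649994, plus strand: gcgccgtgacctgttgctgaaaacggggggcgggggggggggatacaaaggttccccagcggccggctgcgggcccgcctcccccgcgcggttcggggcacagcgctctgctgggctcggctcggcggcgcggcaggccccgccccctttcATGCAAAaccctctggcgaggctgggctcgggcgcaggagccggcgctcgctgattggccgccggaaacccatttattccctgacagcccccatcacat
Nanog, chr6:122707239-122707488, plus strand: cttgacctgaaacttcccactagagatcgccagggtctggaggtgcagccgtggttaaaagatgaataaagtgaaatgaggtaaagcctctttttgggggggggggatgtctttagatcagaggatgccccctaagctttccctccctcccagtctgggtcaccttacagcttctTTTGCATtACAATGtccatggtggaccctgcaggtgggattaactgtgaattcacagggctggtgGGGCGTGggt
Zfp42, chr8:43307010-43307259, minus strand: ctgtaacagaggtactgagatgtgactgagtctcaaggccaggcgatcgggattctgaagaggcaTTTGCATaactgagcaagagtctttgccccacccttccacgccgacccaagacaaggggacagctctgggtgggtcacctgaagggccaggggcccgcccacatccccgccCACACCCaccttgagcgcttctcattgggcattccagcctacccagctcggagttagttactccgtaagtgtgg

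Nanog held an octamer match 75 to 69 bases before the start, a SOX match at 67 to 62 and a KLF match at 10 to 4. Sox2 held an octamer match at 99 to 93, Zfp42 an octamer at 185 to 179 with a KLF match at 74 to 68, and Pou5f1 a KLF match at 79 to 73. RefSeq has a second start for 2 of them. The second Pou5f1 window, chr17:35508557-35508806, held a SOX match at 158 to 153, and the second Nanog window, chr6:122707315-122707564, overlaps the first and held the same 3 matches and 1 more KLF match at 52 to 46. Of all 32851 promoters of the same length, 4.12% held the octamer, 10.7% the SOX, 4.08% the ESRRB and 26.1% the KLF letters. Promoters of Klf4, Klf2 and Esrrb were searched as well, and a KLF match in 1 of the Esrrb windows was the only match among them. A match is a description of the letters and not evidence of binding.

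Within 1 kb of these windows, mESC 1FA listed 25 DNA tags at Nanog, 23 at Pou5f1, 21 at Sox2 and 55 at Zfp42, summed over 3 libraries. The gene's own RNA gave 7, 6, 11 and 35 of them. In mOPC 1FA the same windows held 0 tags at Nanog and Zfp42, 6 at Pou5f1 and 33 at Sox2, of which 1 came from Sox2 RNA. At the promoters not printed, Klf2 had 107 tags in mESC 1FA and 15 in mOPC 1FA, and Klf4 22 and 20. Esrrb had 35 and 1 at its first start and 52 and 2 at its second. In mESC NPM all 16, 6 and 21 tags at Pou5f1, Nanog and Zfp42 came from the gene's own RNA, against 39 of 63 at Sox2.

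In mESC 1FA, Zfp42 and Klf2 gave the highest levels per kilobase of annotated gene, and Klf4 and Nanog the lowest. Zfp42 (chr8:43295063-43306980) had 26.6, 19.2 and 24.2 CPM per kb in the 3 libraries (23.3 ± 3.78, SD, n = 3), and Klf2 (chr8:72319033-72321656) had 21.4, 17.9 and 18.8 (19.4 ± 1.79). These 2 overlapped. Esrrb (chr12:86361117-86521628), an orphan nuclear receptor, followed with 13.8, 11.2 and 10.6 (11.9 ± 1.67), and Tbx3 (chr5:119670669-119684724), a T-box factor, with 9.12, 7.23 and 7.95 (8.10 ± 0.956). Both lay apart from their neighbours in the order. The place of Esrrb depends on its annotated span, since nearly all of its tags came from the last 2 of 5 equal parts. Over these 64.2 kb it had 34.1, 27.7 and 26.2 CPM per kb (29.3 ± 4.19), which overlapped with Zfp42 and lay above Klf2.

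Fbxo15, an F-box gene on chromosome 18, reached 5.29 ± 0.579 CPM per kb, Sall4 (chr2:168748332-168767943) 4.67 ± 0.198 and Sox2 (chr3:34650405-34652461) 4.47 ± 1.74. The libraries of Sox2, at 6.40, 3.98 and 3.03, spread across both of the others. Pou5f1 (chr17:35506018-35510772) had 2.09 ± 0.037, Klf4 (chr4:55527143-55532466) 1.45 ± 0.0635 and Nanog (chr6:122707489-122714633) 1.23 ± 0.0931, with no overlap between these 3. The order of listed interactions per annotated kilobase thus put the 3 genes of the centre among the lower members. Pairs too sparse to be called are not listed, and the part of this in the order was not tested.

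Esrrb, the longest of the genes, dominated the raw counts. It gave 5199, 4183 and 4374 interactions in the mESC 1FA libraries, which was 67.9 to 71.0% of all interactions of the 10 genes. Its part was 61.4 to 61.6% in ActD4 and 42.9 to 47.4% in mESC NPM. The 10 genes together took 0.228 to 0.275% of the listed interactions of a mESC 1FA library.

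**Figure D1:**
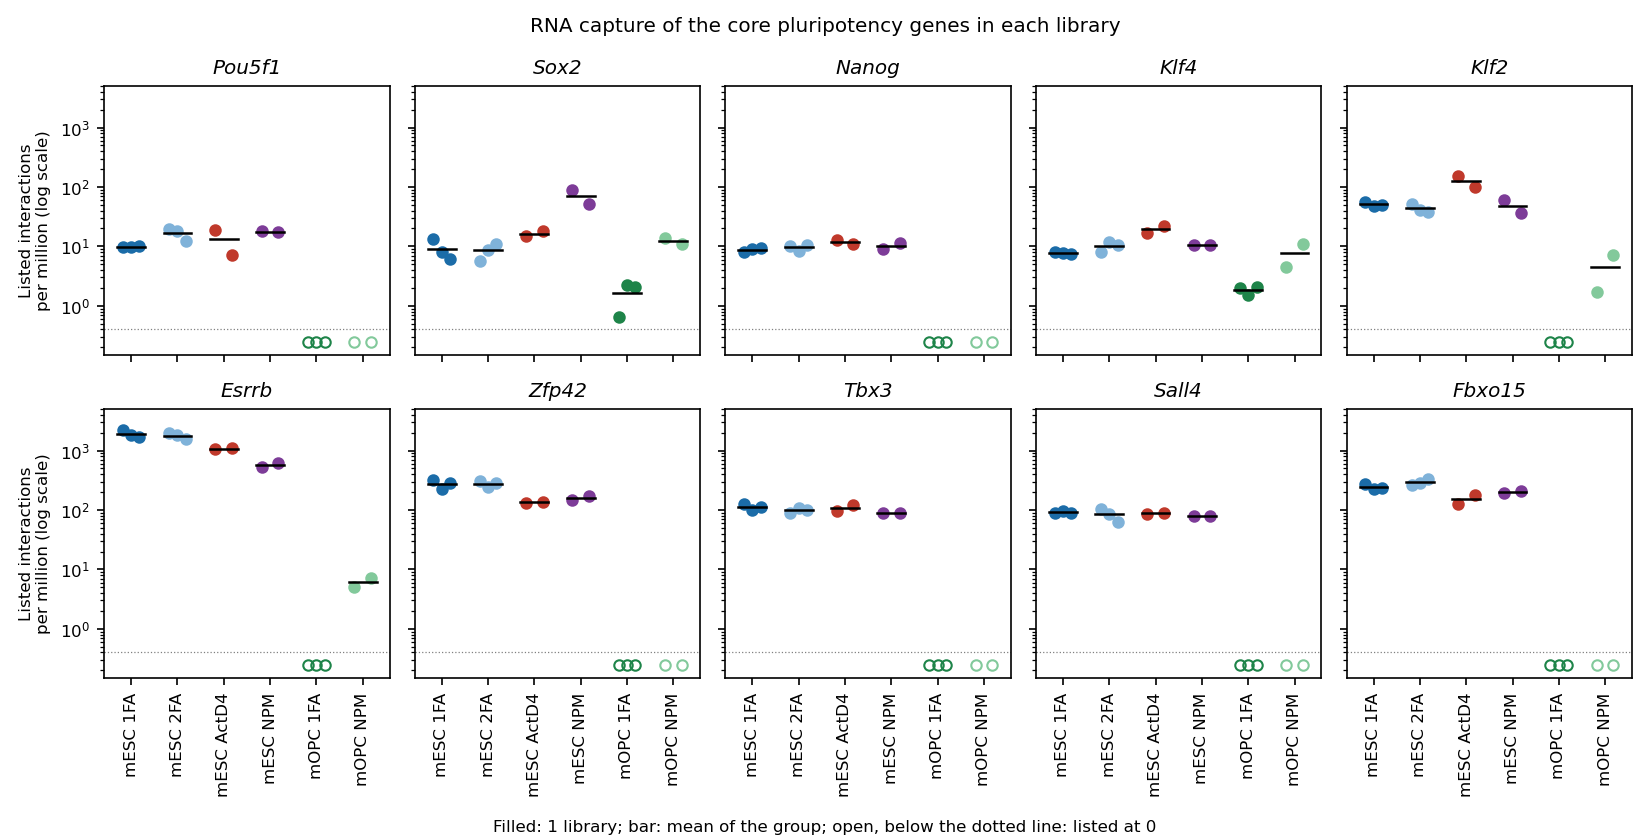
CPM of each of the 10 genes in each library (log axis), by group; every filled point is 1 library, bars are group means and open points below the dotted line are libraries where the gene is listed at 0. Esrrb lies highest in the mESC groups, all 10 genes are listed in every mESC library, and in mOPC 1FA only Sox2 and Klf4 are listed.

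The first comparison asked how the contacts of these RNAs differ between the pluripotent and the neural line. All 10 genes were lower in mOPC 1FA than in mESC 1FA. Of the transcripts tested, 44.5% were lower there and 76.6% differed in either direction. With each pair of transcript and bin counted once per library, 5 genes passed the filter, and all 5 were lower (Esrrb, Zfp42, Tbx3, Sall4 and Fbxo15). These 5 were listed at 0 in mOPC 1FA, so no other direction was possible. Of the 10, 8 (Pou5f1, Nanog, Klf2, Esrrb, Zfp42, Tbx3, Sall4 and Fbxo15) were listed at 0 in all 3 mOPC 1FA libraries. Their counts in mESC 1FA ran from 19, 21 and 24 for Nanog to those of Esrrb. None of the 10 genes reached 10 interactions in a mOPC 1FA library. Each passed the filter through mESC 1FA alone, which largely fixed the direction. In these bulk libraries fewer cells of a type and less RNA per cell cannot be told apart.

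Sox2 and Klf4 were the members still listed in mOPC 1FA. Sox2, the SRY-related partner of Pou5f1, had 31, 19 and 16 interactions in mESC 1FA (13.2, 8.18 and 6.23 CPM) and 1, 3 and 3 in mOPC 1FA (0.658, 2.24 and 2.08 CPM). The ranges did not overlap, and Sox2 was lower by −2.36 on the log2 scale (SE 0.46, limma adjusted p = 0.00226). Klf4, a Krüppel-like factor, had 19, 18 and 19 interactions in mESC 1FA against 3, 2 and 3 in mOPC 1FA. Its difference was −1.93 (SE 0.23, limma adjusted p = 0.000139), again with separate ranges.

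Sox2 lies on the same strand inside the long non-coding gene Sox2ot, so RNA of Sox2ot that runs through Sox2 cannot be told apart from Sox2 RNA. Sox2ot itself went the other way, from a mean of 210.3 interactions in mESC 1FA to 1031 in mOPC 1FA (higher by 3.06 on the log2 scale, SE 0.14, limma adjusted p = 6.01e-07). Zfp42 and Klf2 lie on chromosome 8, where transcripts in general were lower in mOPC 1FA. The median log2 fold change of the 678 tested on that chromosome was −1.54, against −0.26 for the 10983 on other chromosomes, and 81.9% against 55.7% of them lay below 0. The part of this in the difference of the 2 genes was not tested.

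With proteins removed, 9 of the 10 genes were lower in mOPC than in mESC, where 19.6% of the transcripts tested were lower and 52.2% differed in either direction. The count was 6 to 8 when a library was left out and 3 of the 4 that could be tested without own-gene contacts, and no gene passed the filter with each pair counted once. Klf4 was the exception, with 7 and 9 interactions in mESC NPM and 8 and 17 in mOPC NPM (log2 fold change −0.25, SE 0.48, limma adjusted p = 0.691). Sox2 fell from 60 and 45 interactions in mESC NPM to 24 and 17 in mOPC NPM (−2.15, SE 0.36, limma adjusted p = 0.00861). Esrrb had 352 and 525 interactions in mESC NPM against 9 and 11 in mOPC NPM (−6.17, SE 0.22, limma adjusted p = 6.9e-05).

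Klf2, another Krüppel-like factor of the naive state, had 40 and 32 interactions in mESC NPM and 3 and 11 in mOPC NPM (−3.30, SE 0.71, limma adjusted p = 0.0185). The 2 mOPC NPM libraries differed more from each other in Klf2 and Klf4 than the 2 mESC NPM libraries did. The other 6 genes were listed at 0 in both mOPC NPM libraries, so they passed the filter through mESC NPM alone and could only come out lower.

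**Figure D2:**
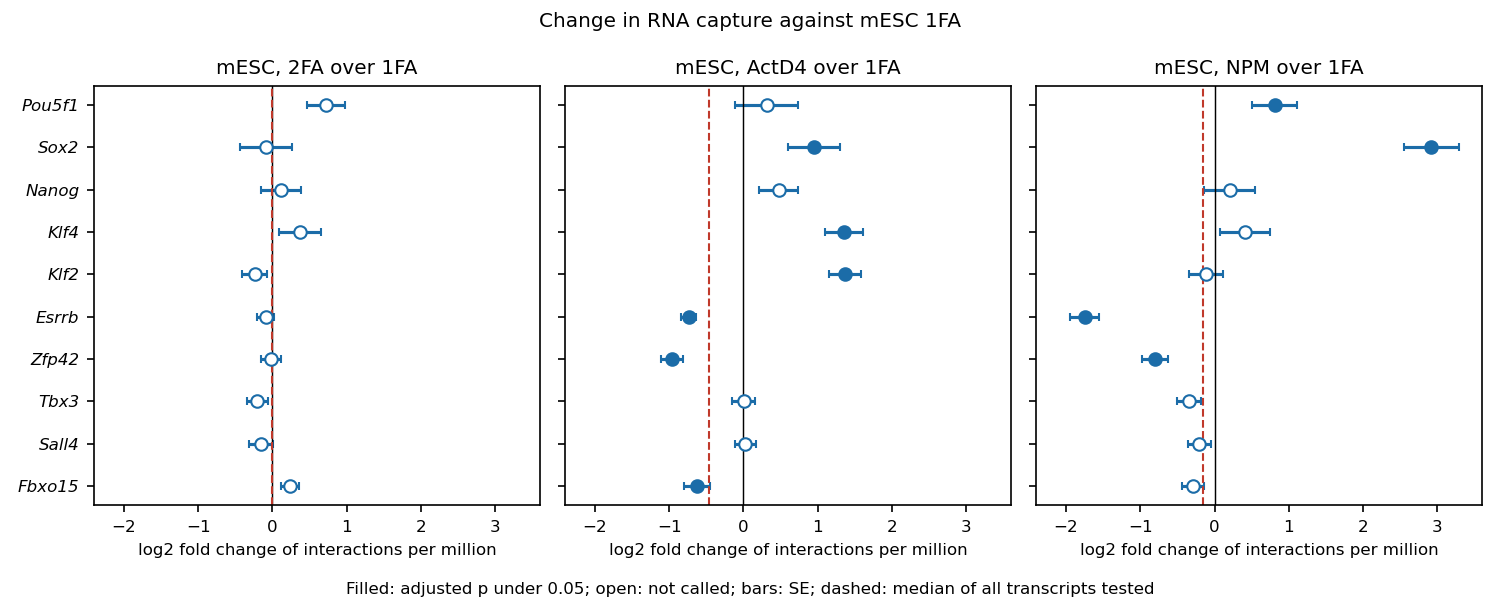
Log2 fold changes of the CPM of the 10 genes in mESC 2FA, ActD4 and NPM against mESC 1FA. Bars are SEs from limma, filled points passed an adjusted p of 0.05 over all transcripts, and the dashed line is the median of all transcripts tested. In ActD4 Sox2, Klf4 and Klf2 are filled above 0 and Esrrb, Zfp42 and Fbxo15 below it, in NPM Sox2 stands highest at 2.92, and in 2FA no point is filled. With scaling by mapped read pairs no gene was called above 0 in ActD4, where 3.32% of all called transcripts were. In NPM only Sox2 was, where 6.64% of all called transcripts were.

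The next comparison asked what remained of the contacts after transcription was blocked for 4 h in mESC. Klf2, Klf4 and Sox2 held a larger part of the listed interactions in ActD4 than in mESC 1FA, where 17.6% of the transcripts tested were higher. Esrrb, Zfp42 and Fbxo15 held a smaller part, where 46.6% were lower and 64.3% moved in either direction. With groups thinned to equal numbers, their pairs not tested again for significance, the 3 lower genes passed. Klf2 did not (1.80, limma adjusted p = 0.0748), and Klf4 and Sox2 could not be tested. The transcripts tested had a median of −0.47 on the log2 scale, so the 3 genes that fell were close to or moderately below the common change. Scaled by the mapped read pairs of the study in place of the listed interactions, the median was −1.78. Of 10685 transcripts 8873 were then called, 295 of them higher, and of the 10 genes none was higher and 7 were lower. Klf2 (0.05), Klf4 (0.06) and Sox2 (−0.34) were then not called, so their rise is one relative to the other listed transcripts.

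Klf2 had 132, 109 and 127 interactions in mESC 1FA (56.1, 47.0 and 49.4 CPM) and 73 and 28 in ActD4 (153 and 101 CPM). Both ActD4 libraries lay above all 3 controls, with a log2 fold change of 1.37 (SE 0.21, limma adjusted p = 0.00124). Klf4 went from 8.07, 7.75 and 7.39 CPM to 16.8 and 21.7 (1.35, SE 0.26, limma adjusted p = 0.00318), resting on 8 and 6 interactions in ActD4. Klf2 and Klf4 are compact genes with few and short introns.

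Sox2, which has a single exon, had 14.7 and 18.1 CPM in ActD4, above its 3 values in mESC 1FA. Its log2 fold change of 0.95 (SE 0.35, limma adjusted p = 0.0499) lay at the threshold, rested on 7 and 5 interactions and passed in 10 of 15 settings.

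Esrrb fell from 2208, 1802 and 1702 CPM in mESC 1FA to 1044 and 1102 in ActD4 (−0.74, SE 0.11, limma adjusted p = 0.000771). Zfp42, a zinc-finger gene and marker of the naive state, fell from 317, 229 and 289 to 130 and 137 (−0.96, SE 0.15, limma adjusted p = 0.00110). Both passed in all 17 settings. Fbxo15 went from 278, 229 and 234 to 126 and 181 (−0.62, SE 0.17, limma adjusted p = 0.0154) and passed in 12 of 17 settings.

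The 4 other genes did not pass the test in ActD4, though all 4 were lower with scaling by mapped pairs (−1.32 for Tbx3, −1.29 for Sall4, −0.80 for Nanog and −0.96 for Pou5f1). All 4 of these values lay above the median of all transcripts at that scaling, −1.78. On the scale of listed interactions Tbx3 had a log2 fold change of 0.00 and Sall4 of 0.03, Nanog of 0.48 and Pou5f1 of 0.31. Pou5f1 rested on 9 and 2 interactions and Nanog on 6 and 3, so that only large changes could have been detected. The summed level of the 8 primitive endoderm markers, another cell type such a culture can hold, was 724.5 to 1372 CPM in mESC 1FA and 477.1 to 498.8 in ActD4. Of the 5 tested 3 were lower. Foxa2 and Sox17 were listed at 0 in both groups. Dab2, Gata6 and Sox7 were listed at 0 in ActD4 only, where a fitted fold depends on the prior count. The part of these markers in the differences above was not tested.

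The following comparison removed proteins from mESC chromatin before ligation, and shares its mESC 1FA libraries with the ActD4 and 2FA comparisons. Sox2 and Pou5f1 held a larger part of the listed interactions in mESC NPM than in mESC 1FA, where 18.7% of the transcripts tested were higher. Esrrb and Zfp42 held a smaller part, where 33.2% were lower, and 51.9% moved in either direction. Sox2 rose from 13.2, 8.18 and 6.23 CPM to 89.4 and 52.0 (log2 fold change 2.92, SE 0.36, limma adjusted p = 0.000141). Both NPM libraries stood several times above every control library. With groups thinned to equal numbers, Esrrb (−1.93) was the 1 gene of 9 tested that passed, and Sox2 did not (3.33, limma adjusted p = 0.109). With each pair counted once, neither Sox2 nor Pou5f1 could be tested.

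Pou5f1 rose from 9.77, 9.91 and 10.1 CPM to 17.9 and 17.3 (0.81, SE 0.30, limma adjusted p = 0.0462), a call that held in 7 of 16 settings. Of its 27 tags in NPM, 26 lay in its own gene, as did all 16 of Nanog, all 16 of Klf4 and all 72 of Klf2, so contacts outside the gene hold no test of these genes. Esrrb fell from 2208, 1802 and 1702 CPM to 524.3 and 606.4 (−1.75, SE 0.20, limma adjusted p = 7.94e-05). Zfp42 fell from 317, 229 and 289 to 144 and 172 (−0.80, SE 0.18, limma adjusted p = 0.00348) and passed in 14 of 17 settings. Nanog, Klf4, Klf2, Tbx3, Sall4 and Fbxo15 did not pass. The median of all transcripts was −0.15 and moved to 0.54 when libraries were scaled by their totals alone, under which Sall4 (0.49), Fbxo15 (0.41), Klf2 (0.59) and Tbx3 (0.35) moved above 0 with the rest and the first 2 of them passed the test. Scaled by the mapped read pairs that the study states, the median was −1.29, and 7656 of 10957 transcripts were called, 508 of them higher. Sox2 was the 1 gene higher there (1.77), 7 genes were lower, and Pou5f1 (−0.33) was not called. Primitive endoderm markers summed to 724.5 to 1372 CPM in mESC 1FA and 1366 to 1630 in NPM with none of 5 called by limma, and mOPC markers to 11.5 to 41.4 and 69.3 to 90.9 with Erbb3 called higher. Their part in the differences was not tested.

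In mOPC, Sox2 went from 0.658, 2.24 and 2.08 CPM in 1FA to 13.7 and 11.1 in NPM (2.92, SE 0.49, limma adjusted p = 0.00284). Klf4 rose there from 1.97, 1.49 and 2.08 to 4.58 and 11.1 (1.91, SE 0.43, limma adjusted p = 0.00955), and Esrrb appeared from 0 with 9 and 11 interactions. These were the 3 genes that could be tested, and 30.6% of all transcripts tested were higher and 55.2% differed in either direction. None of the 3 reached 10 interactions in a mOPC 1FA library. Each passed the filter through mOPC NPM alone, which largely fixed the direction, so they are no second test of the change in mESC. Leaving out either mOPC NPM library left 1 call among them.

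The change of Sox2 with protein removal differed between the lines by 0.11 on the log2 scale (SE 0.68, limma interaction adjusted p = 0.916), a wide interval around no difference. The host transcript Sox2ot fell in both lines, by 0.83 in mESC (SE 0.22, limma adjusted p = 0.00974) and by 1.10 in mOPC (SE 0.13, limma adjusted p = 0.000513). For Klf4 the difference between the lines was −1.38 (SE 0.51, limma interaction adjusted p = 0.0607). The mESC and mOPC comparisons share no library.

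Formaldehyde at 2% in place of 1% moved none of the 10 genes past the threshold, where 0.839% of the transcripts were called. At an unadjusted p under 0.05, limma counted 1 gene. This was Pou5f1, with 23, 23 and 26 interactions under 1% formaldehyde and 41, 36 and 30 under 2% (0.72 on the log2 scale, limma adjusted p = 0.256). The samples of the 2 concentrations were paired by replicate number, and a fit with that pairing called none either. Counting each pair of transcript and bin once per library called 5. The bins were selected over pooled replicates, and most were listed in every library of a group. The p-values of this count therefore do not measure the spread between batches of cells. Tbx3 (−0.57), Esrrb (−0.44), Zfp42 (−0.16) and Sall4 (−0.09, limma adjusted p = 0.0466) were lower, and Fbxo15 (0.11) was higher. The 0.839% above holds for the main count, and the share of all transcripts called under this one is not given.

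A further comparison asked where the RNAs touched DNA. In mESC 1FA, 26.2, 27.7 and 26.4% of the interactions of the 10 genes had their DNA tag inside the RNA's own gene (26.8% ± 0.810, SD, n = 3). In ActD4 the share was 56.5 and 52.5% (54.5% ± 2.80, n = 2), and in mESC NPM 93.9 and 90.3% (92.1% ± 2.58, n = 2). The groups did not overlap. Each exact permutation test over libraries, two-sided, gave p = 0.2, the smallest that 3 against 2 libraries allow.

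Contacts more than 100 kb away on the same chromosome went the other way. They made up 57.5% ± 1.10 of the interactions in mESC 1FA, 26.3% ± 3.33 in ActD4 and 0% in mESC NPM, again with exact permutation p = 0.2. Without Esrrb the shares were 38.7% ± 2.53, 12.2% ± 1.37 and 0%. All listed transcripts together moved alike, with own-gene shares of 29.8 to 32.0%, 54.5 to 55.7% and 94.6 to 95.8%.

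Significance depends on how many pairs a group holds, so the mESC 1FA libraries were also thinned to the number of interactions of the treated groups, keeping pairs with at least 5. The own-gene share in mESC 1FA then rose to 38.0% against 54.5% in ActD4, and to 32.4% against 92.1% in NPM. The share beyond 100 kb fell to 44.3% against 26.3%, and to 49.9% against 0%. The directions held after thinning, with smaller differences. The thinned pairs were not tested again for significance, and in ActD4 no Esrrb bin was listed with fewer than 8 interactions. The thinning therefore does not remove all of the listing limit, and its part in the remaining differences was not tested.

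**Figure D3:**
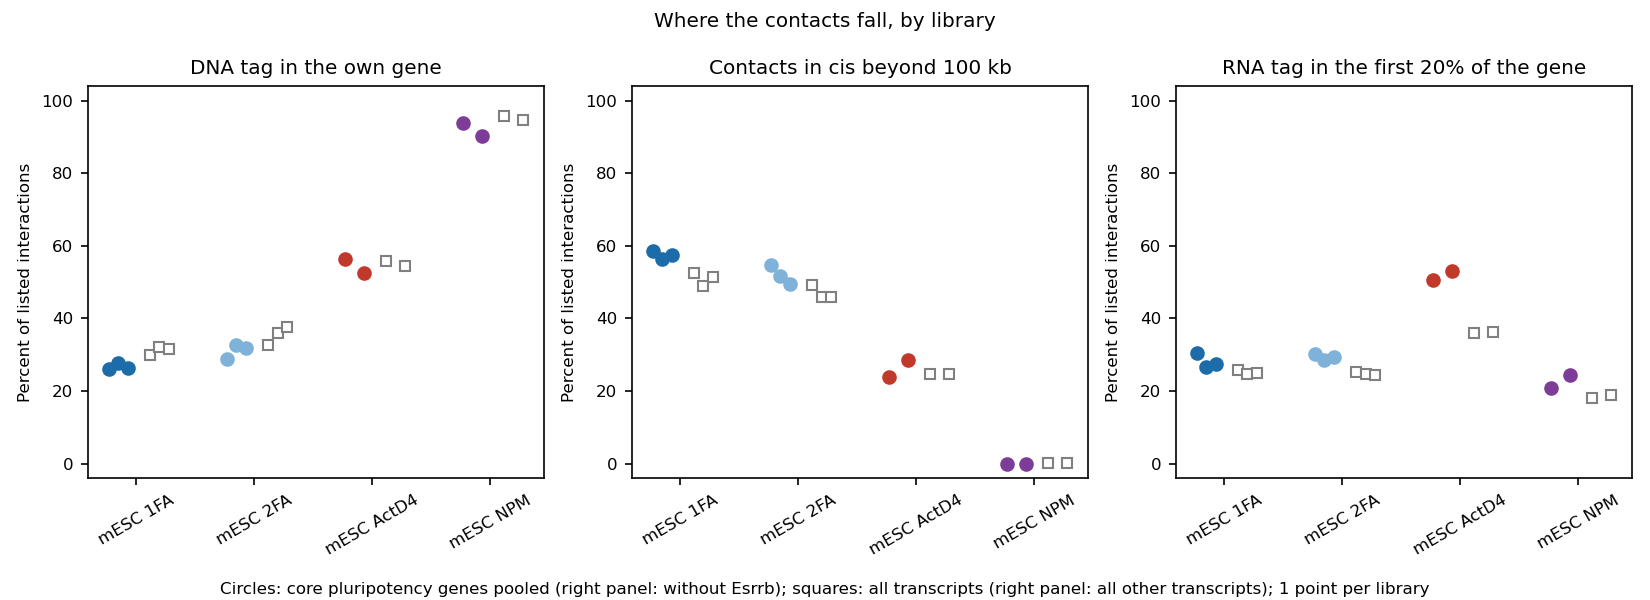
Percent of listed interactions whose DNA tag lay in the RNA's own gene (left), whose DNA tag lay over 100 kb away on the same chromosome (middle) and whose RNA tag lay in the first 20% of the gene (right, without Esrrb), in each mESC library. Circles are the 10 genes pooled and squares all transcripts (right: all other transcripts). Circles and squares move together in the left and middle panels, and in the right panel the ActD4 circles, at 50.6 and 53.2%, lie above the squares, at 36.1 and 36.3%. With Esrrb kept, the ActD4 values of the 10 genes are 19.5 and 20.4%, below the squares.

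**Figure D4:**
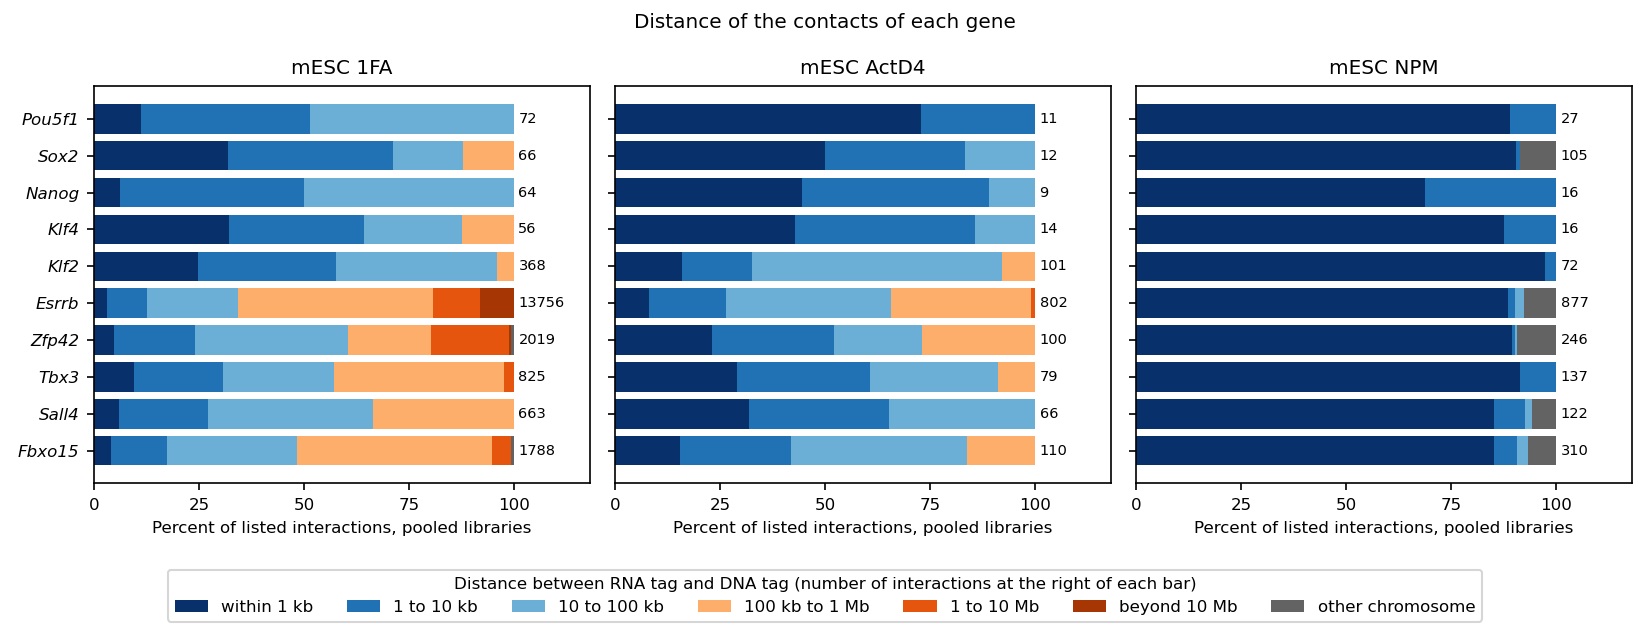
Percent of each gene's pooled interactions in each class of distance between RNA tag and DNA tag, as stacked bars for mESC 1FA, ActD4 and NPM, with the number of interactions beside each bar. Contacts within 1 kb make up 3.01% of Esrrb interactions in mESC 1FA and 88.6% in NPM.

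The own-gene share of 7 genes was higher in both ActD4 libraries than in all 3 of mESC 1FA, though for Pou5f1 and Nanog it rested on 9 and 2 and on 6 and 3 interactions. How many of all transcripts separate in this way was not counted, and the share of all transcripts pooled rose as well. Sox2 overlapped, with 29.03, 10.5 and 12.5% in mESC 1FA and 42.9 and 20% in ActD4, as did Klf4, with 21.1, 55.6 and 42.1% and 50 and 83.3%. Klf2 was lower, with 30.3, 31.2 and 33.9% in mESC 1FA and 15.1 and 17.9% in ActD4. Its most frequent other target was Eps15l1, the neighbouring gene, with 71 interactions in mESC 1FA and 36 of 101 in ActD4. In mESC NPM the share of contacts within 1 kb ran from 68.8% for Nanog to 97.2% for Klf2.

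Esrrb RNA covered the most bins on its chromosome among the 10 genes. In mESC 1FA it was listed in 287 bins of 25 kb, up to 32.2 Mb from the RNA tag, and 2624 of its 13756 interactions lay beyond 1 Mb in 208 bins. In mESC 2FA 1388 lay beyond 1 Mb in 103 bins, and in ActD4 8 did, all in 1 bin at Pgf. The highest bin beyond 1 Mb in mESC 1FA held 56 interactions. In ActD4, with 802 Esrrb interactions in all, no Esrrb bin was listed with fewer than 8. The part of this listing limit in the lower number of far bins was not tested. Counting contacts beyond 1 Mb alone, the bin at Fos (chr12:85450001-85475000) held 15, 13 and 14 in the 3 libraries of mESC 1FA and the bin before it 18, 19 and 19.

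Downstream of the gene, an unbroken run of 38 listed bins ended 0.953 Mb past the gene end, in both mESC 1FA and mESC 2FA. The last bin of the run was chr12:87450001-87475000, with 13 interactions in 1FA and 21 in 2FA, and the next listed bin lay at 1.83 and 1.88 Mb. Upstream the run held 69 bins in 1FA and 73 in 2FA, to 1.74 and 1.84 Mb. In ActD4 the runs were 7 bins downstream and 3 upstream, where bins with few interactions are likewise not listed. The downstream run thus ended in the same bin at both formaldehyde concentrations. These were called separately, but share the cell line, the pairing by replicate number and the mapping filter. Whether any RNA can be listed in the stretch past this bin was not tested.

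Zfp42 had 385 interactions beyond 1 Mb in 34 bins in mESC 1FA. Of its 2019 interactions, 9 lay beyond 10 Mb, up to 39.8 Mb, in the single bin chr8:3500001-3525000. In mESC 2FA none lay beyond 10 Mb, and the farthest was at 2.67 Mb. Fat1 and Triml2 were the genes Zfp42 contacted most in mESC 1FA apart from its own, with 61 and 44 DNA tags. Contacts outside the gene were not always even on both sides. Tbx3 had 21.0% of them downstream, where Esrrb had 50.3% and Klf4 88.2%, and 164 of the 257 Tbx3 contacts in other genes lay in Tbx3os1, its antisense neighbour.

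**Figure D5:**
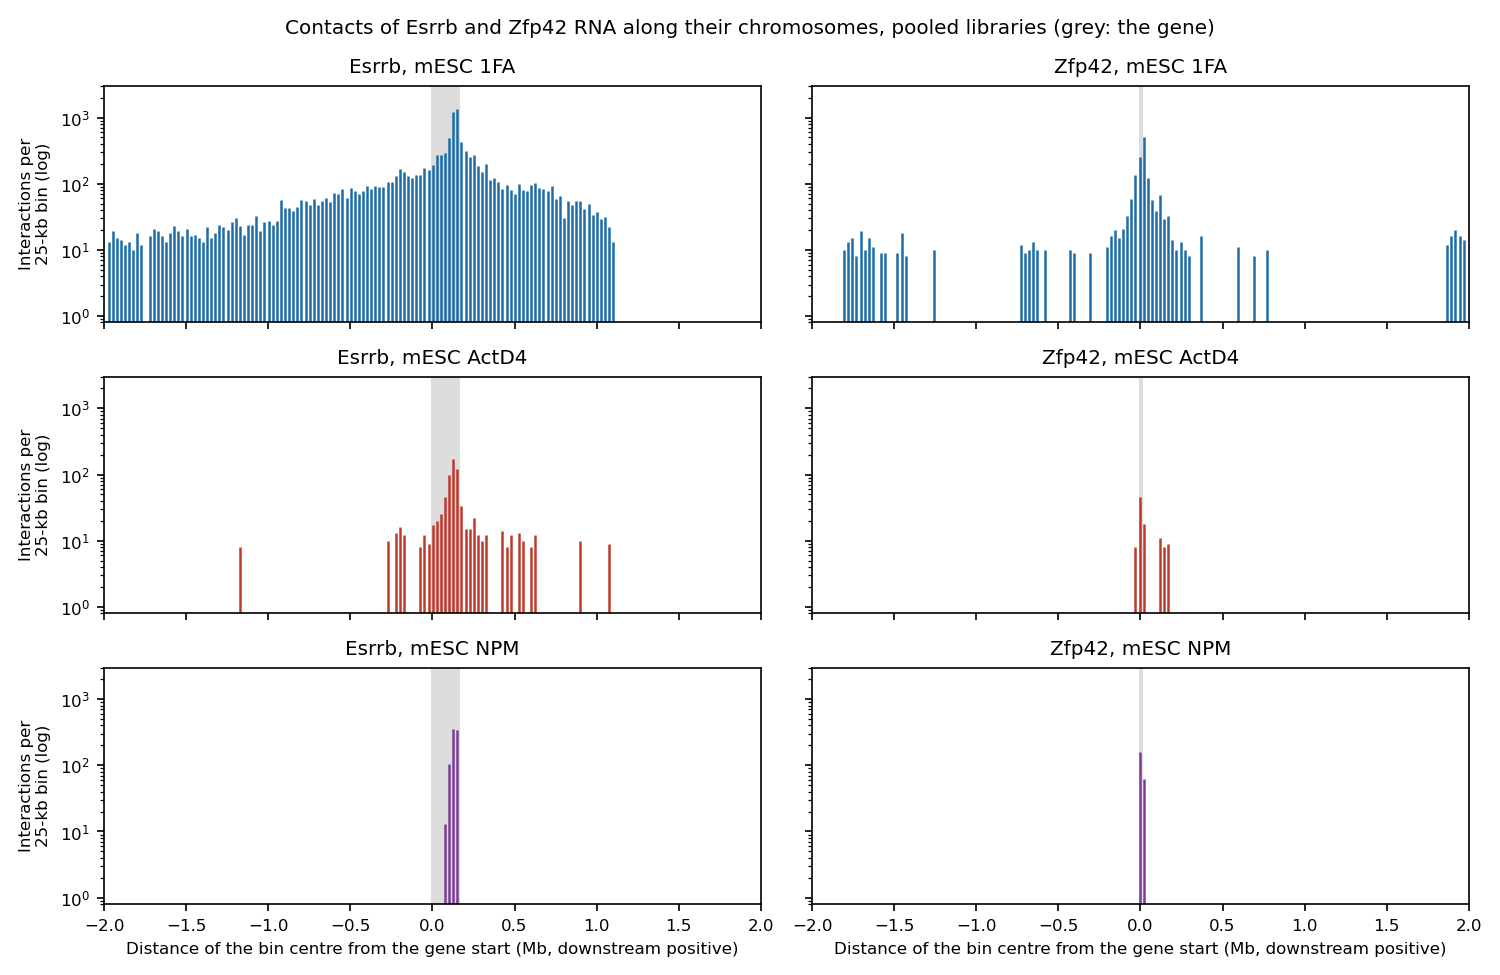
Pooled interactions per 25-kb bin (log axis) against the distance of the bin from the gene start (Mb, downstream positive) for Esrrb and Zfp42 in mESC 1FA, ActD4 and NPM, with the gene in grey. The Esrrb bins in 1FA form a broad slope that ends 0.953 Mb past the gene end, the listed bins thin out in ActD4, and in NPM they lie at the gene. ActD4 holds 802 Esrrb interactions against 13756 in 1FA, and bins with few interactions are not listed.

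Sox2 had 1 separate contact in mESC. The bin chr3:34750001-34775000 held 3, 4 and 1 Sox2 interactions in the 1FA libraries and 2, 4 and 1 in those of 2FA, with no listed bin directly before it. The DNA tags lay 106.1 to 121.6 kb from the Sox2 start in 1FA and 107.0 to 123.7 kb in 2FA. The lincRNA gene Gm38509 starts near the end of this bin, at 34772075, past the tags of 1FA. In mESC 1FA the same bin was contacted by Fxr1 (40), Sox2ot (30), Gm22973 (24), Malat1 (24), Atp11b (16) and Gm38509 (11), and in mOPC 1FA by Sox2ot alone, with 37. Counts of 1 to 4 per library are small.

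Contacts of the 10 RNAs on other chromosomes fell on 2 bins, and made up 0.217 to 0.286% of their interactions in mESC 1FA and 4.39 and 8.30% in mESC NPM. One, chr17:39825001-39850000, holds ribosomal RNA genes and took 20 Esrrb interactions in mESC 1FA and 56 in NPM. The other, chr11:109000001-109025000, took 12 Esrrb interactions in NPM.

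The origin of the RNA tags within the genes moved with actinomycin D. Without Esrrb, 30.5, 26.6 and 27.5% of tags came from the first 20% of the gene in mESC 1FA (28.2% ± 2.02) and 50.6 and 53.2% in ActD4 (51.9% ± 1.78). The groups were apart, with an exact permutation p = 0.2, the smallest possible. All other transcripts went from 25.8, 24.8 and 25.1% to 36.1 and 36.3%, and after thinning the mESC 1FA values for the genes were 31.0, 33.7 and 24.1%.

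Of the 9 genes, 7 had both ActD4 libraries above all 3 of mESC 1FA, and Pou5f1 and Sox2 overlapped. Among the 7, Klf4 rested on 8 and 6 tags in ActD4 and Nanog on 6 and 3. For this share and for the intron tags below, separation was not counted over all transcripts. Pou5f1 went from 30.4, 39.1 and 23.1% to 33.3 and 0%, on 9 and 2 tags in ActD4. Zfp42 went from 33.0, 23.5 and 27.4% in this stretch to 64.5 and 68.4%, Tbx3 from 20.5, 16.5 and 18.5% to 47.8 and 45.5%, and Fbxo15 from 32.4, 33.1 and 34.8% to 65.0 and 58.0%. The share of intron tags lay below all mESC 1FA libraries in ActD4 for 4 of the 10 genes, Esrrb, Klf2, Sall4 and Tbx3, and overlapped for the other 6, Zfp42 among them with 81.8, 88.7 and 86.3% against 85.5 and 84.2%. Over all transcripts it went from 80.3 to 82.2% to 70.1 to 71.0%. Klf2 went from 40.9, 44.0 and 45.7% to 17.8 and 17.9%, and Tbx3 from 53.3, 56.4 and 54.7% to 17.4 and 27.3%. Esrrb was left out because 41.9% of its tags in mESC 1FA came from the fourth and 56.9% from the last of 5 equal parts of its annotated span.

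The reverse view asks which RNAs of other genes contacted DNA inside the 10 genes. In mOPC 1FA 6 of the 10 were contacted less than in mESC 1FA, where 35.1% of all genes tested were lower and 64.9% differed in either direction. Nanog went from 17, 13 and 8 contacts to 0, and Zfp42 from 40, 35 and 34 to 0. Esrrb went from 193, 208 and 196 to 37, 35 and 23 (log2 fold change −2.13), Tbx3 from 57, 45 and 43 to 3, 9 and 5 (−2.59), Klf2 from 22, 33 and 29 to 1, 3 and 5 (−2.71) and Pou5f1 from 12, 13 and 13 to 2, 3 and 4 (−1.47). None of these 6 ranges overlapped. All but Esrrb stayed under 10 contacts in every mOPC 1FA library, so they passed the filter through mESC 1FA alone, which largely fixed the direction. Zfp42 and Klf2 lie on chromosome 8, whose transcripts were in general lower in mOPC 1FA. The part of this in the contacts on the 2 genes was not tested. With each pair counted once, 4 genes could be tested, and Esrrb, Zfp42 and Tbx3 were lower.

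Sox2 had 4, 7 and 2 contacts by other RNAs in mESC 1FA and 11, 5 and 5 in mOPC 1FA, which overlapped (1.16, limma adjusted p = 0.0604). Sall4 (36, 54 and 41 against 28, 34 and 8), Klf4 and Fbxo15 did not pass either. For ActD4 and NPM only counts are given, since the test failed on simulated counts there. Summed over the 2 ActD4 libraries, Esrrb had 49 contacts by other RNAs, Tbx3 24, Sall4 18 and Klf2 17, and in NPM no gene had more than 1 in a library.

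Among the 2 most frequent contacting RNAs of a gene were those of neighbouring genes in several cases. Slc2a3, a glucose transporter gene beside Nanog, gave 17 of the 38 contacts on Nanog in mESC 1FA, Med13l 68 of 145 on Tbx3, Zfp407 54 of 76 on Fbxo15, Eps15l1 37 of 84 on Klf2 and Ttll5 130 of 597 on Esrrb. Gm22973 and Malat1, whose genes are not neighbours of the 10, were frequent in mESC 1FA as well, and were the top 2 for Pou5f1 and Zfp42. Gm22973 gave 137 contacts on Esrrb, which lies on the same chromosome, 36 on Zfp42, 28 each on Tbx3 and Sall4, 13 on Pou5f1 and 9 on Nanog. In mOPC 1FA it gave 0 on each of these genes. Malat1 gave 9 on Pou5f1 and 20 on Zfp42. In mESC 2FA Malat1 gave 1 and 2 on these 2 genes, and Gm22973 gave 12 and 48.

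In mOPC 1FA the most frequent contacting RNAs were these. Gpatch2l gave 54 and Ttll5 22 of the 95 on Esrrb, Med13l all 17 on Tbx3, Eps15l1 all 9 on Klf2, and Sox2ot 17 of the 21 on Sox2. Neto1 gave 31 and Zfp407 24 of the 71 on Fbxo15, and Nfatc2 21 and Bcas1 18 of the 70 on Sall4. Malat1 gave all 9 on Pou5f1.

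A wider list of 63 other genes of the pluripotency network, of signalling genes, partner factors, and targets and markers, gave the context. In mOPC 1FA 43 of the 50 tested were lower and 4 higher, where 44.5% of all transcripts were lower and 32.1% higher. Of the 50, 31 were listed at 0 in mOPC 1FA, where a fitted fold depends on the prior count and only a lower value was possible. The median log2 fold change was −4.48 as fitted and −3.76 with these genes at the bound that 3 interactions over the group give, against −0.34 for all transcripts as fitted. Partner factors were lower in 18 of 20, signalling genes in 11 of 15, and targets and markers in 14 of 15. Cdh1 (E-cadherin), Tfcp2l1 and Nr5a2 had means of 1272, 1217 and 1209 interactions in mESC 1FA and were listed at 0 in mOPC 1FA. The 4 higher genes were Myc (4.21), a transcription factor of growth and pluripotency with means of 3.33 and 39.3 interactions, which was named after its value was seen, Sox2ot, and the signalling genes Jak1 (0.70) and Smad1 (0.42). The last 2 did not pass with scaling by mapped pairs (0.22 and −0.07).

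With proteins removed, 37 of the 49 tested on this list were lower in mOPC and 5 higher, where 19.6% of all transcripts were lower and 32.6% higher. The median was −4.59 as fitted and −3.97 with the 25 genes listed at 0 in one group at their bound, against 0.27 for all as fitted. Tfcp2l1 (−4.79) and Mybl2 (−4.61) were among them, and Cdh1 was listed at 0. In ActD4 26 of 49 were lower and 8 higher, near the 46.6% and 17.6% of all transcripts. The median was −0.57 as fitted and −0.20 with the 10 genes listed at 0 in ActD4 at their bound. The median of all was −0.47 as fitted, with no bound applied, so the list lay on either side of it. The largest falls with at least 100 interactions per library on average were those of L1td1 (−1.52), Klf5 (−1.42) and Morc1 (−1.34), and Cdh1 rose by 0.35 (−0.97 with scaling by mapped pairs).

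In mESC NPM the list was split, with 17 of 51 higher and 20 lower, where 18.7% of all transcripts were higher and 33.2% lower. Trim28 (2.37), a co-repressor, and Zfp57 (1.55), an imprinting factor, rose (Zfp57 not with scaling by mapped pairs, 0.39), and Etv5 (−1.79), Alpl (−1.52) and Tcf3 (−1.20) fell. In mOPC NPM 7 of 23 were higher and 8 lower, near the 30.6% and 24.5% of all transcripts, with Etv5 (−1.53) and Smad1 (−1.08) among those that fell. In mESC 2FA limma called none of 50.

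Over the 15 libraries, the transcripts whose level most resembled the mean profile of the 10 genes were Anln (Pearson r 0.993), Slc2a3, Rgs22, Cep192 and Camsap3, among 13636 compared. The likeness is a description, since libraries of 1 line and treatment share their source.

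The 10 mESC markers summed to 3166 to 3892 CPM in mESC 1FA and were all listed at 0 in mOPC 1FA. Of these, 4 are among the 10 genes described here, and the other 6 summed to 1146 to 1349 CPM in mESC 1FA. The 10 mOPC markers summed to 9585 to 10346 in mOPC 1FA, most of it from Cntn1 and Ptprz1, and to 11.5 to 41.4 in mESC 1FA. Of the 7 that could be tested 5 were higher in mOPC 1FA, Pdgfra (−1.94) and Erbb3 (1.07) did not pass, and Nkx2-2 and Sox8 were listed at 0 in both. Summed trophoblast, fibroblast, early mesoderm and neuroectoderm markers reached at most 22.3 CPM in any mESC library, and primitive endoderm markers 640.5 to 1372 in mESC 1FA and 2FA.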

How the data were processed

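RADICL-seq data of 15 libraries in 6 groups (32 RNA and DNA entries per the labels) were used. The authors removed ribosomal and duplicate tags, mapped RNA and DNA tags to mm10 with BWA (0.7.15-r1140, per the submitters' processing notes) and kept mapping quality 37. They annotated tags with GENCODE, by strand for RNA tags and without regard to strand for DNA tags. Each pair of transcript and 25-kb bin was tested by a one-sided binomial test on pooled replicates. The p-values that the authors deposited with each pair come from these tests, and adjusted values of listed pairs lie below 0.05. No deposited value was used as a measurement. The uniquely mapped read pairs per library that the study states served for 1 alternative scaling, chosen after seeing the data.

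Lines were merged to distinct interactions and counted per RNA gene and library. Transcripts with at least 10 interactions in 1 library and 15 in all compared were kept, scaled by TMM, turned to log2 CPM with a prior count of 0.5, and tested with limma 3.58.1 (R 4.3.3, trended eBayes, two-sided) with Benjamini-Hochberg adjustment over all. Shares were compared by exact permutation over libraries (SciPy 1.17.1). Scripts were tested on simulated counts. Planned fits of DNA contacts against ActD4 and NPM were not used, because they failed the test on simulated counts, and in mOPC NPM no gene of the 10 passed the filter. P-values measure the spread between batches of cells, on pairs selected over pooled replicates. With each pair counted once per library they do not, since the libraries of a group share most of their listed bins.

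The genes, the lists and the tests were chosen with earlier results of these data known. Named were the 10 genes, of the wider list the 3 called genes with the largest rise and the 3 with the largest fall and at least 100 interactions per library on average, for each gene the 2 most frequent contacting RNAs and contacted genes, and the 5 transcripts with the most similar profile. Sox2ot, Myc, Pgf, Fos and the RNAs of the distal Sox2 bin were named after their values were seen. Replicate numbers paired mESC 1FA with 2FA, where deviations of same-numbered libraries correlated at 0.390, 0.231 and 0.405, and no other groups. Alternatives changed the scaling, prior count, filter, test, the counting of pairs, own-gene contacts, replicate block and libraries. Gene positions are from GENCODE on GRCm38 and promoters from RefSeq, where Tbx3, Sall4 and Fbxo15 were not matched.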

Additional observations from a re-analysis of the deposited data

Results flagged for a closer look

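The interaction term for protein removal, mESC against mOPC, passed the threshold for Esrrb (limma interaction adjusted p = 1.26e-07) and Klf2 (limma interaction adjusted p = 0.0018). Of all transcripts tested 35.4% passed. Esrrb went from 13756 to 877 interactions in mESC and from 0 to 20 in mOPC, summed over the libraries of each group, and Klf2 from 368 to 72 and from 0 to 14. Both were listed at 0 in mOPC 1FA, so no size is given for the difference.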

How the results depend on the processing

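Members called were counted again under each alternative. Counting each pair of transcript and bin once per library gave 5 called genes between mESC 1FA and mOPC 1FA, 0 between the NPM groups and 0 for mOPC NPM against mOPC 1FA (fewer genes passed the filter), 5 in mESC 2FA and 3 for DNA contacts. Leaving out own-gene contacts gave 3 calls between the NPM groups, 0 in mOPC NPM against 1FA and 7 in mESC NPM. These 7 are void for Nanog, Klf4 and Klf2, with 0 interactions left in mESC NPM, and for Tbx3, with 1. Groups thinned to equal numbers, chosen after seeing the data like the test without the ribosomal bin and the interaction settings, gave 3 in ActD4 and 1 in mESC NPM. Thinned pairs were not tested again for significance. For the difference of the protein-removal effect between lines, scaling by the total gave 5, no filter 4 and scaling by mapped read pairs 7. The last, also chosen after seeing the data, gave 8 called genes in mESC NPM, moved the median of all transcripts from −0.47 to −1.78 in ActD4 and from −0.15 to −1.29 in mESC NPM, and turned the sign of Smad1 in mOPC 1FA (−0.072), of Pou5f1 (−0.96), Sox2 (−0.34), Nanog (−0.80), Tbx3 (−1.32), Sall4 (−1.29) and Cdh1 (−0.97) in ActD4, and of Pou5f1 (−0.33) and Nanog (−0.92) in mESC NPM. The change of the own-gene share in ActD4, in percentage points, was 21.85 with pairs counted once, 24.06 without Esrrb and 16.51 after thinning, and in NPM 69.04 without Esrrb and 59.7 after thinning. The change of the share beyond 100 kb in ActD4 was −37.12 with pairs counted once, −25.66 as the median over genes, −26.49 without Esrrb, −17.99 after thinning and −23.18 without own-gene contacts, and in NPM −87.53, −36.16, −38.68, −49.86 and −76.55, all at exact permutation p = 0.2. Signs also turned, with 1 of both values past the threshold, for Smad1 in mOPC 1FA with scaling by the total (−0.017), Tbx3 (−0.34) and Sall4 (−0.52) in ActD4 and Zfp57 in mESC NPM (−0.34) with pairs counted once, Sall4 (0.49) and Fbxo15 (0.41) in mESC NPM with scaling by the total, Fbxo15 (0.47) in mESC NPM without own-gene contacts, and Fbxo15 for DNA contacts with its own RNA included (−2.41). Without own-gene contacts the fits also gave −2.01 for Pou5f1, −4.49 for Nanog and −3.85 for Klf4 in mESC NPM, values set by the prior count, since 1, 0 and 0 interactions were left. Another 31 signs turned where neither value passed. Leaving out each library in turn gave 10 to 10 calls between mESC 1FA and mOPC 1FA, 6 to 8 between the NPM groups, 4 to 6 in ActD4, 3 to 3 in mESC NPM, 1 to 3 in mOPC NPM, 0 to 0 in mESC 2FA, 6 to 7 for DNA contacts and 2 to 3 for the difference between lines, with share changes of 25.77 to 29.73 and 63.49 to 67.14 (own gene) and −33.5 to −28.79 and −57.99 to −56.89 (beyond 100 kb). The cause was not tested for the others. Scaling by the total moved the share of higher among all called transcripts from 36.0 to 74.3% in mESC NPM, from 55.5 to 90.4% in mOPC NPM, from 41.9 to 31.7% in mOPC 1FA and from 62.5 to 48.3% between the NPM groups, and scaling by mapped pairs to 6.64, 35.1, 30.5 and 65.6%. In ActD4 the latter moved it from 27.4 to 3.32% and in mESC 2FA from 57.9 to 83.1%, and for DNA contacts from 45.9 to 35.5%. With the replicate block, mESC 2FA kept 0 called genes. Low counts limit what could be detected for Pou5f1, Nanog and Klf4 in ActD4 and NPM and for Sox2 in ActD4.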
